A study of Mus musculus with 12 samples.

Results

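The 35 genes described here encode enzymes that make cholesterol and fatty acids, or proteins that control this synthesis through the sterol regulatory element-binding proteins (SREBPs). They were chosen by name among the 24062 genes of the count table. 19 encode enzymes of the path from acetyl-CoA to cholesterol, 5 encode the SREBPs and their regulators, 1 (Stard4) carries sterol between membranes, and 10 encode enzymes that make, lengthen or desaturate fatty acids or supply their precursors. All 35 were among the 12154 genes that passed the filter on low counts.

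SREBP-1 and SREBP-2, encoded by Srebf1 and Srebf2, are transcription factors made as membrane proteins of the endoplasmic reticulum. When sterols are scarce, SCAP escorts them to the Golgi, where proteases release their active part. When sterols are plentiful, INSIG1 and INSIG2 hold SCAP and SREBP back in the endoplasmic reticulum. SREBP-2 mainly drives the cholesterol enzymes and SREBP-1 mainly the fatty acid enzymes, and both act with the factors NF-Y and Sp1, which bind CCAAT boxes and GC boxes. Cultured fibroblasts can take cholesterol and fatty acids from serum or make their own.

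RNA was sequenced from mouse embryonic fibroblasts (MEFs) that express an shRNA against Renilla luciferase, a control with no target in the mouse (shRenilla), or an shRNA against Birc6, the gene of the giant ubiquitin ligase BRUCE (shBruce). Each line was kept in full medium (FM), which contains fetal calf serum, or starved for 2 h in medium without serum and amino acids (Starv), with 3 replicates per group and 12 libraries in all. Each shRNA is represented by a single line, so the knockdown and any other difference between the lines cannot be told apart. The strain and age of the embryos are not given in the sources used here.

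Total counts ranged from 7717265 in replicate 1 of shBruce Starv to 18510540. Values below are normalized counts, that is counts scaled to a common library size, and changes are log2 fold changes with their standard errors (SE) from an edgeR fit over all 12 libraries. A change was called at an adjusted p under 0.05. Normalized counts of Birc6 were 4682, 3273 and 5061 in shRenilla FM, 4759, 4712 and 2787 in shRenilla Starv, 1207, 1265 and 1390.4 in shBruce FM, and 1175, 703 and 1226 in shBruce Starv. Birc6 was lower in shBruce MEFs in both media, with log2 fold changes of -1.75 in FM (adjusted p = 0.0627) and -1.98 in Starv (adjusted p = 0.0186). Of 8 fibroblast markers, 7 were expressed and Thy1 was at or near 0. The summed adipocyte markers stayed between 12.9 and 55.7 in all libraries, and Cfd and Cidec were at 0 in each. Fabp4 led their sum except in replicate 1 of shBruce Starv, where Lep was at 30.3 and Fabp4 at 10.1. In that library the epithelial marker Krt18 was at 32.3 and the endothelial marker Tek at 16.1, against at most 1.60 and 2.12 elsewhere. Over all libraries, the endothelial marker Kdr was at 1.98 to 51.9 and the leukocyte marker Cd68 at 58.5 to 132. The leukocyte marker Ptprc was at most 18.2, and Cd3e was at 0. Of the hepatocyte markers, Alb reached 127 in replicate 2 of shRenilla Starv and was at most 2.45 elsewhere.

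In 2 libraries, replicate 3 of shBruce FM and replicate 3 of shBruce Starv, these lipid genes stood apart, high in the former and low in the latter. Replicate 3 of shBruce FM held the highest normalized count of its group for 31 of the 35 genes (88.6%), against 39.7% of all genes tested, and for all 19 cholesterol enzymes. It was the highest of all 12 libraries for 25 of the 35 (71.4%), against 8.69% of all genes. The median gene of the 35 was at 1.57 times the mean of the other 2 replicates there, against 1.01 for all genes. Scd2 was at 21587 against 7058 and 8231 in the other 2 replicates, whereas Fasn, Srebf1, Scap and Acaca were not at their group's highest level in it. Total counts of this library (14802390) were close to those of its group. Replicate 3 of shBruce Starv was the lowest of its group for 22 of the 35 genes (62.9%), against 34.4% of all genes, and for 16 of the 19 cholesterol enzymes (84.2%). It was the lowest of all 12 libraries for 14 of the 35 (40.0%), against 6.17% of all genes. Why these libraries differ was not tested. Counts of starvation calls over all 35 genes are given with and without each of them. Counts and medians of the enzyme groups are from all libraries. Values of single genes, where given this way, are without replicate 3 of shBruce FM only. The fit pools the spread of each gene over all its groups. Leaving out 1 member of a group of 3 leaves a group of 2, which adds less to that estimate.

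**Figure D1:**
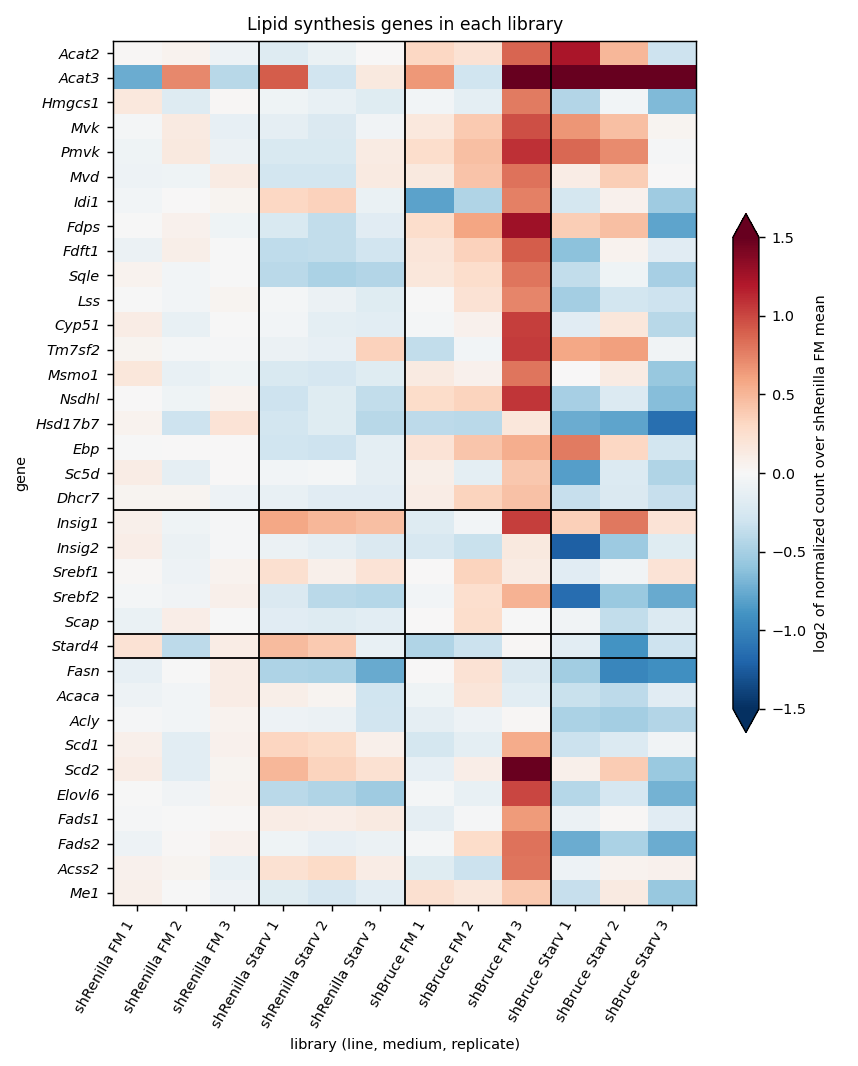
Heat map of the 35 genes (rows, in blocks of cholesterol enzymes, SREBP factors and regulators, Stard4, and fatty acid enzymes) in the 12 libraries (columns), as the log2 ratio of the normalized count to the shRenilla FM mean, with colours limited to 1.5 in either direction. Replicate 3 of shBruce FM is red in nearly every row, Fasn is blue in all 6 Starv libraries, and Acat3 is dark red in all 3 shBruce Starv libraries.

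The promoters of a few of these genes are shown to make the elements behind SREBP control visible. RefSeq promoter sequences on GRCm38.p6, from 250 bases before to 50 bases after the transcription start, were matched to 27 of the 35 genes. Hmgcs1 (3-hydroxy-3-methylglutaryl-CoA synthase) is shown because it was the gene among them with a match to the sterol response element TCACNCCAC. Nsdhl, Srebf2 and Fasn are shown with the desaturase Fads2, because their transcripts fell in starved shBruce MEFs under every alternative analysis, and Insig1 because it did not fall. Capitals mark the sterol response element and the CCAAT boxes, which read ATTGG when they lie on the other strand.
Hmgcs1 (chr13:119690101-119690400, plus strand): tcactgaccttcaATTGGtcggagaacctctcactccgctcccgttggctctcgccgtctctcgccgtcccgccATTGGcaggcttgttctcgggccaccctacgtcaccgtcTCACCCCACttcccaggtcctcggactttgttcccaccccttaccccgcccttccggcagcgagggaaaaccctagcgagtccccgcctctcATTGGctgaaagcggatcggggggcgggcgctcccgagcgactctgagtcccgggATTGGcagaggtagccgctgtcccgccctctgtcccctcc
Nsdhl (chrX:72918271-72918570, plus strand): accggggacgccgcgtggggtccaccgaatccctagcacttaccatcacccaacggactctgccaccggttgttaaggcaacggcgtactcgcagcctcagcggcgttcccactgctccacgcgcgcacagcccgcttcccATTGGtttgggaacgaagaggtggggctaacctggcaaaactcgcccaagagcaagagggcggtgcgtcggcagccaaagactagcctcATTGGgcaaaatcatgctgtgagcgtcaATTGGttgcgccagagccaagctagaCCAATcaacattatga
Srebf2 (chr15:82147019-82147318, plus strand): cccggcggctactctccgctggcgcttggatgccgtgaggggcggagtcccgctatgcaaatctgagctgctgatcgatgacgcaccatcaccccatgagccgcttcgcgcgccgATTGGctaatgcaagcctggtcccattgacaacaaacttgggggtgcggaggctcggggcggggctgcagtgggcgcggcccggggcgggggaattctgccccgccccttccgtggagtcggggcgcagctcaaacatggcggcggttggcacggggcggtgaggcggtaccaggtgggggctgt
Fasn (chr11:120824498-120824797, minus strand): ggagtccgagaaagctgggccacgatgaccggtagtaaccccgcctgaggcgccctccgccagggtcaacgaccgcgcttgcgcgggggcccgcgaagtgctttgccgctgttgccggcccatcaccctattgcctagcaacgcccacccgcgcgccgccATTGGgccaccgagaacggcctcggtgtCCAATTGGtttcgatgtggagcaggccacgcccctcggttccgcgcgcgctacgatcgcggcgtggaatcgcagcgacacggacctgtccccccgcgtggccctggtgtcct
Insig1 (chr5:28071162-28071461, plus strand): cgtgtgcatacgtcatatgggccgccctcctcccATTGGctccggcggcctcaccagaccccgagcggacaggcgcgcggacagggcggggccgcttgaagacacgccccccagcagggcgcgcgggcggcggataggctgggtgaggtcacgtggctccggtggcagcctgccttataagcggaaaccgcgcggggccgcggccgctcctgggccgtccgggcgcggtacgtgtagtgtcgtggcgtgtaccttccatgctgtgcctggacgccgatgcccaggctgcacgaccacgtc
Fads2 (chr19:10101454-10101753, minus strand): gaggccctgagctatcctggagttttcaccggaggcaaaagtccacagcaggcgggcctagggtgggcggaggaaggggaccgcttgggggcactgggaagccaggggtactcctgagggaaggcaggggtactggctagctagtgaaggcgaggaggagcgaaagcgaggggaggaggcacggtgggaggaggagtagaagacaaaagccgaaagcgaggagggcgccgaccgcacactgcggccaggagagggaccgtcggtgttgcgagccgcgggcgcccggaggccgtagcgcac

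Searched on both strands, CCAAT boxes were found in the promoters of 22 of the 27 genes (81.5%), against 41.1% of the 27025 genes in the promoter table. GC boxes (GGGCGG) were found in 23 of 27 (85.2%), against 38.2%. The sterol response element TCACNCCAC was found in 1 of 27, at position -137 of Hmgcs1, against 1.44% of all genes. Hmgcs1 and Nsdhl each held 4 CCAAT boxes, Fasn held 3, a pair of which overlap on opposite strands, Srebf2 and Insig1 held 1 each, and Fads2 held none. The promoter table is not matched to these genes on expression. A match describes the letters in the window and does not show binding, and SREBPs also bind variants that this search does not cover.

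To ask how the lipid genes respond to starvation, Starv was compared with FM in each line. In shBruce MEFs, 13 of the 35 genes fell (37.1%, against 10.6% of all 12154 genes) and 1 rose (2.86%, against 12.4%). Their median log2 fold change was -0.44, against 0.02 for all genes. In shRenilla MEFs, 1 of the 35 fell (2.86%, against 7.27%) and none rose (against 9.69%), with a median of -0.12 against -0.01. By the unadjusted test at 0.05, 19 of the 35 passed in shBruce, against 36.3% of all genes, and 2 in shRenilla, against 31.6%. The change was positive for 4 of the 35 in shBruce, against 51.9% of all genes, and for 10 in shRenilla, against 49.5%. Without replicate 3 of shBruce FM, the change was positive for 11 of the 35 in shBruce and for 10 in shRenilla. With bulk RNA, fewer cells of a type and less RNA per cell cannot be told apart. Starv and FM groups did not overlap for 14 genes that were lower and 5 that were higher in shRenilla Starv, against 26.5% and 25.9% of all genes. In shBruce, 15 were lower and 1 was higher without overlap, against 14.8% and 16.2% of all genes. The exact permutation p of each single gene with 3 libraries against 3 cannot go below 0.1, and it was 0.1 for every gene called.

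**Figure D2:**
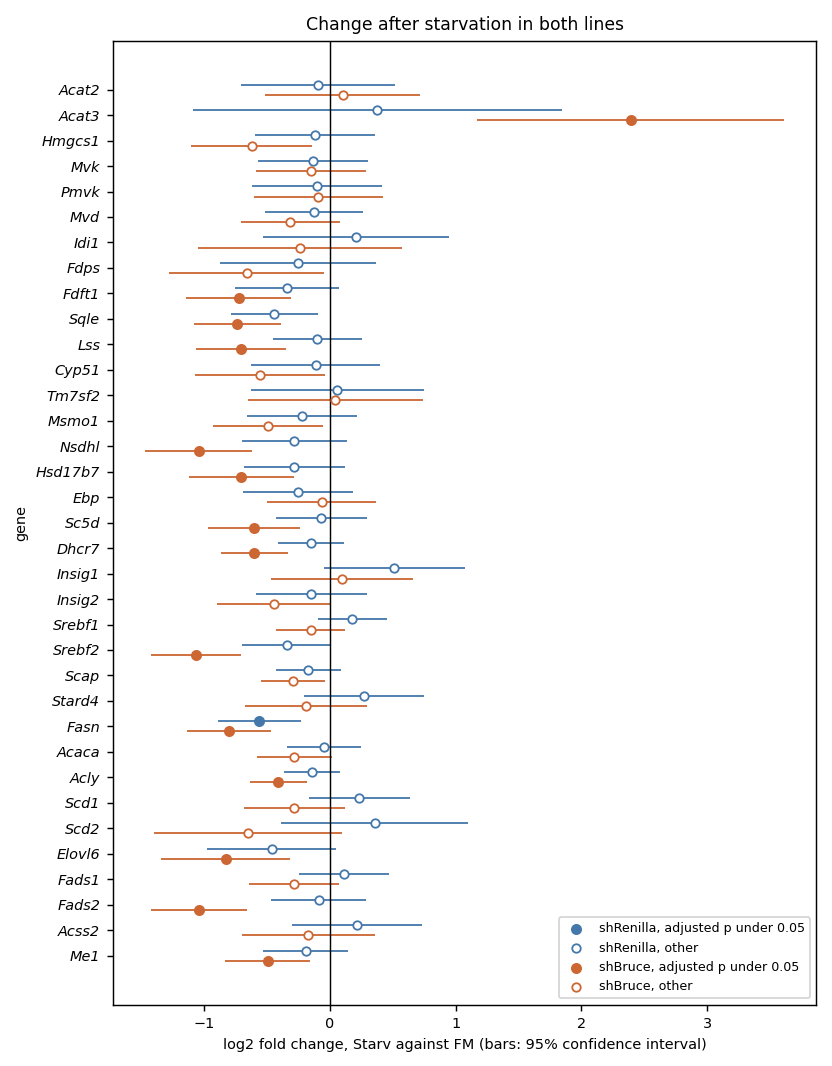
Log2 fold change of each of the 35 genes between Starv and FM, with 95% confidence intervals, in shRenilla (blue) and shBruce (orange), where filled points have an adjusted p under 0.05. In shBruce, 13 genes lie below 0 with filled points and Acat3 lies above 0, and in shRenilla Fasn alone is filled.

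Among the regulators, Srebf2 fell and the others did not pass the test. Normalized counts of Srebf2 were 3999, 3924 and 4282 in shRenilla FM and 3505, 3083 and 3035 in shRenilla Starv. They were 3959, 4863 and 5857 in shBruce FM and 1841, 2773 and 2402 in shBruce Starv. Every Starv library was thus below every FM library of its line. The log2 fold change was -1.06 in shBruce (SE 0.17, 0.479 of the FM level, adjusted p = 7.03e-04) and -0.34 in shRenilla (SE 0.16, adjusted p = 0.172). Without replicate 3 of shBruce FM the change in shBruce was -0.92 (adjusted p = 0.00264).

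Srebf1, the gene of the factor for fatty acid synthesis, did not follow Srebf2. It was at 1446, 1354 and 1488 in shRenilla FM and 1692, 1509 and 1642 in shRenilla Starv, and at 1429, 1807 and 1554 in shBruce FM and 1266, 1379 and 1653 in shBruce Starv. The groups were apart in shRenilla, with Starv higher, and overlapped in shBruce. Neither change passed the test (log2 0.18 with adjusted p = 0.374, and -0.15 with adjusted p = 0.406).

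Insig1 encodes the sterol-dependent anchor and is itself a classical SREBP target. Its normalized counts were 667, 604 and 627 in shRenilla FM and 948, 893 and 866 in shRenilla Starv. They were 555, 613 and 1294 in shBruce FM and 809, 1094 and 727 in shBruce Starv. All 3 starved shRenilla libraries were above the 3 in FM, and in shBruce all 3 starved libraries were above replicates 1 and 2 of FM and below replicate 3. With all libraries, the log2 fold changes were 0.51 (SE 0.26, adjusted p = 0.200) in shRenilla and 0.09 (SE 0.26, adjusted p = 0.824) in shBruce. Without replicate 3 of shBruce FM, Insig1 was called higher in both lines, at 0.51 (SE 0.15, adjusted p = 0.0312) in shRenilla and 0.58 (SE 0.17, adjusted p = 0.0282) in shBruce.

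Insig2, which encodes the second anchor, was at 430.1, 376 and 394 in shRenilla FM, 375, 363 and 346 in shRenilla Starv, 339, 316 and 444 in shBruce FM, and 172, 274 and 352 in shBruce Starv. Starv was lower without overlap in shRenilla, and the shBruce groups overlapped. Its changes of -0.15 and -0.44 did not pass the test (adjusted p = 0.663 and 0.147). Scap, the escort of SREBP, was at 1813, 2083 and 1927 in shRenilla FM, 1726, 1702 and 1739 in shRenilla Starv, 1942, 2333 and 1926 in shBruce FM, and 1875, 1503 and 1681 in shBruce Starv. Its starved libraries were below its FM libraries in both lines, by small amounts, and its changes of -0.17 and -0.29 did not pass the test (adjusted p = 0.349 and 0.0918).

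**Figure D3:**
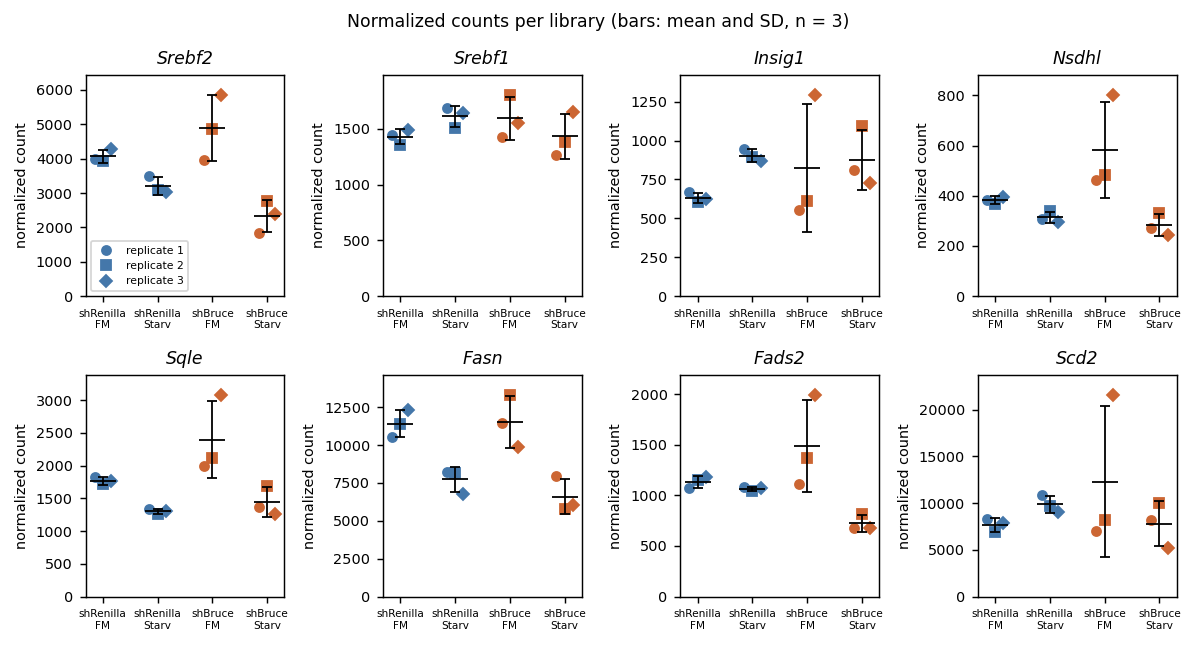
Normalized counts of 8 genes in every library (circles, squares and diamonds for replicates 1, 2 and 3), with the mean and SD of each group of 3 as black bars, for shRenilla (blue) and shBruce (orange). Srebf2, Nsdhl, Sqle and Fasn are lower in Starv than in FM in both lines without overlap, and replicate 3 of shBruce FM is the highest point for Insig1, Nsdhl, Sqle, Fads2, Srebf2 and Scd2.

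Of the 19 cholesterol enzymes, 7 fell in starved shBruce MEFs (36.8%, against 10.6% of all genes), 1 rose (5.26%, against 12.4%) and 11 did not pass the test, and none passed in shRenilla, where 1 passed the unadjusted edgeR test at 0.05. Their medians were -0.56 in shBruce and -0.13 in shRenilla. The 7 that fell were Fdft1, Sqle and Lss, which turn farnesyl diphosphate into lanosterol by way of squalene, and Nsdhl, Hsd17b7, Sc5d and Dhcr7, which act in the later sterol steps. Without replicate 3 of shBruce FM, only Sqle, Lss, Nsdhl and Dhcr7 of the 19 were called lower in shBruce. None of the earlier enzymes, from Hmgcs1 to Fdps, passed the test. Among these, Hmgcs1 and Fdps had the most negative changes, -0.62 and -0.66 (adjusted p = 0.0613 and 0.113), and Mvk and Pmvk were at -0.15 and -0.09. Of the others, Cyp51 and Msmo1, which act on lanosterol and its products, were at -0.56 and -0.49 (adjusted p = 0.110 and 0.0999), and Tm7sf2 and Ebp at 0.04 and -0.07.

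Nsdhl, which takes part in removing methyl groups from lanosterol derivatives, fell most among the cholesterol enzymes. It was at 384, 367 and 397 in shRenilla FM and 308, 338 and 297 in shRenilla Starv. In shBruce it was at 462, 484 and 802 in FM and 270.5, 331 and 245 in Starv. The groups did not overlap in either line. Its log2 fold change was -1.05 in shBruce (SE 0.20, adjusted p = 0.00232) and -0.28 in shRenilla (SE 0.19, adjusted p = 0.347), and without replicate 3 of shBruce FM it was -0.75 in shBruce (adjusted p = 0.00401).

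Sqle encodes squalene epoxidase, a rate-limiting enzyme of the pathway. Its counts were 1830, 1713 and 1760 in shRenilla FM, 1337, 1269 and 1299 in shRenilla Starv, 1996, 2121 and 3079 in shBruce FM, and 1369, 1696 and 1255 in shBruce Starv. Each starved library was below the FM libraries of its line. The change was -0.74 in shBruce (SE 0.16, adjusted p = 0.00576) and -0.44 in shRenilla (SE 0.16, adjusted p = 0.0767), and without replicate 3 of shBruce FM it was called in both (-0.52 and -0.44, adjusted p = 0.0172 and 0.0249).

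Fdft1, the squalene synthase, was at 604, 684 and 639.8 in shRenilla FM, 495, 499 and 525 in shRenilla Starv, 731, 814 and 1209.9 in shBruce FM, and 419.9, 668 and 569 in shBruce Starv. Hsd17b7, a sterol ketoreductase, was at 427, 331 and 475 in shRenilla FM, 341, 363 and 308 in shRenilla Starv, 312, 311 and 463 in shBruce FM, and 244, 238 and 188 in shBruce Starv. The groups of Fdft1 were apart in both lines and those of Hsd17b7 in shBruce. In shBruce, Fdft1 fell by 0.73 on the log2 scale (SE 0.19, adjusted p = 0.0163) and Hsd17b7 fell by 0.70 (SE 0.19, adjusted p = 0.0184). Both calls, and that of Sc5d (-0.60), were lost without replicate 3 of shBruce FM, with values of -0.48, -0.49 and -0.45 and adjusted p of 0.0645, 0.0695 and 0.0834. The calls for Lss (-0.71, then -0.47) and Dhcr7 (-0.60, then -0.53) were kept. Of the exon positions of Fdft1, 18.3% are shared with Ctsb on the opposite strand, and the strand setting of the counting is not given in the sources used here. Ctsb itself changed by -0.01 in shRenilla and 0.27 in shBruce (adjusted p = 0.962 and 0.0778).

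Acat3 was the member that rose. It encodes a cytosolic acetoacetyl-CoA thiolase and was expressed at a low level, with raw counts from 13 to 213. Normalized counts were 10.6, 30.2 and 13.4 in shRenilla FM, 34.3, 14.7 and 19.99 in shRenilla Starv, 28.7, 14.7 and 78.3 in shBruce FM, and 337, 227 and 92.9 in shBruce Starv. The starved shBruce libraries were above all others and the remaining groups overlapped. Its change was 2.39 in shBruce (SE 0.57, adjusted p = 0.00875) and 0.38 in shRenilla (SE 0.68, adjusted p = 0.742), and without replicate 3 of shBruce FM it was 3.30 in shBruce (SE 0.60, adjusted p = 0.00277). Acat3 lies next to its close relative Acat2 on chromosome 17 (12923813 to 12940600 for Acat3 and 12942890 to 12960747 for Acat2), and 23.5% of its exon positions are shared with Tcp1 on the opposite strand, so its counts are uncertain where the counting could split reads. Acat2 itself was at 1401, 1313 and 2076 in shBruce FM and at 2642, 1605 and 913 in shBruce Starv, with overlapping groups and a change of 0.10 (adjusted p = 0.829).

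Among the 10 enzymes of fatty acid synthesis, 5 fell in shBruce (50%, against 10.6% of all genes) and none rose. With all libraries, all 10 had a negative change there, where 51.9% of all genes had a positive one. Without replicate 3 of shBruce FM, only Fasn, Acly and Fads2 of these enzymes were called lower in shBruce. Mean counts of Scd1, Scd2 and Acss2 in shBruce FM without that replicate were 3528, 7645 and 112. Their means in shBruce Starv were higher, at 3560, 7818 and 135. In shRenilla, 1 fell (10%, against 7.27%) and 4 of the 10 changes were positive, against 49.5% of all genes. Fasn, the fatty acid synthase, was the gene that fell in both lines. It was at 10528, 11399 and 12331 in shRenilla FM and 8253, 8186 and 6773 in shRenilla Starv, and at 11463, 13311 and 9858 in shBruce FM and 7949, 5804 and 6060 in shBruce Starv. The FM and Starv groups were apart in each line. Its log2 fold change was -0.56 in shRenilla (SE 0.15, 0.678 of the FM level, adjusted p = 0.0243) and -0.81 in shBruce (SE 0.15, 0.572, adjusted p = 0.00253). In shRenilla the call was lost when replicate 2 or 3 of shRenilla FM, or any 1 replicate of shRenilla Starv, was left out, with adjusted p up to 0.0955, and in shBruce it was kept in all 23 alternatives.

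Fads2, the delta-6 desaturase of polyunsaturated fatty acids, fell in shBruce. Its counts were 1071, 1148 and 1182 in shRenilla FM, 1082, 1040.2 and 1070.0 in shRenilla Starv, 1109, 1367 and 1992 in shBruce FM, and 676, 817 and 675 in shBruce Starv. The shRenilla groups overlapped and the shBruce groups did not. The change was -1.04 in shBruce (SE 0.18, adjusted p = 0.00126) and -0.09 in shRenilla (SE 0.18, adjusted p = 0.758), and without replicate 3 of shBruce FM it was -0.78 in shBruce (adjusted p = 0.00210).

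Elovl6, which lengthens palmitate, was at 1374, 1330 and 1421 in shRenilla FM and 1037, 1005 and 946 in shRenilla Starv, and at 1347, 1269 and 2752 in shBruce FM and 1023, 1153 and 843 in shBruce Starv. The groups did not overlap in either line. It fell by 0.83 in shBruce (SE 0.24, adjusted p = 0.0242) and was at -0.46 in shRenilla (SE 0.24, adjusted p = 0.202). Without replicate 3 of shBruce FM the call in shBruce was lost (-0.38, adjusted p = 0.0684) and Elovl6 was called in shRenilla (-0.47, adjusted p = 0.0216).

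Acly, which makes cytosolic acetyl-CoA from citrate, was at 5356, 5294 and 5640.0 in shRenilla FM, 5164, 5107 and 4461 in shRenilla Starv, 4959, 5162 and 5491 in shBruce FM, and 3914, 3825 and 4013 in shBruce Starv. The starved shBruce libraries were the lowest of all. Acly fell by 0.41 in shBruce (SE 0.10, adjusted p = 0.0125), and Me1, a source of NADPH, fell by 0.50 (SE 0.16, adjusted p = 0.0367). The call for Me1 was lost in 14 of the 23 alternatives. Acaca, Scd1, Scd2, Fads1 and Acss2 did not pass the test in either line. Scd2, a stearoyl-CoA desaturase, was at 8334, 6884 and 7901 in shRenilla FM and 10874, 9709 and 9008 in shRenilla Starv, higher without overlap, with a change of 0.36 (SE 0.34, adjusted p = 0.515). In shBruce it was at 7058, 8231 and 21587 in FM and 8149, 10068 and 5238 in Starv, and the groups overlapped.

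How many of the 35 genes passed depended on the libraries in the fit. With the 6 shRenilla libraries fitted alone, 10 passed in shRenilla: Insig1 and Scd2 were higher, and Fdps, Fdft1, Sqle, Nsdhl, Ebp, Srebf2, Fasn and Elovl6 were lower. These were 22.9% lower and 5.71% higher, and in that fit 19.5% of all genes were lower and 22.4% higher. With the 6 shBruce libraries alone, 5 passed in shBruce, where Acat3 was higher and Nsdhl, Srebf2, Fasn and Fads2 were lower (11.4% lower, against 3.43% of all genes, and 2.86% higher, against 4.68%). Without replicate 3 of shBruce FM, 8 fell (22.9%, against 9.83% of all genes) and 2 rose (5.71%, against 11.1%) in shBruce, with a median of -0.27. In shRenilla, 3 then fell (8.57%, against 7.76%) and 1 rose (2.86%, against 10.4%). In shBruce, 12 fell (34.3%, against 16.6%) and 1 rose (2.86%, against 16.1%) when replicate 3 of shBruce Starv was left out, with a median of -0.36. The calls for Elovl6 and Me1 were then lost, and Insig2 was called lower. Acat3, Nsdhl, Srebf2, Fasn and Fads2 were called in shBruce in all 23 alternatives.

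Per kilobase of the longest coding transcript, the highest mean levels in shRenilla FM were those of Scd2 (1413), Acly (1227), Fasn (1136) and Fads1 (975) and the lowest those of Idi1 (8.07) and Acat3 (8.43). Some enzymes of fatty acid synthesis thus took the top of the list in these fibroblasts. Others, such as Elovl6 (231), Acaca (109) and Acss2 (45.6), were below the cholesterol enzyme Msmo1 (711). In shRenilla Starv, the level per kilobase of Fasn was 770, that of Scd2 1808 and that of Acly 1109.

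To ask whether the knockdown line differed in FM, shBruce was compared with shRenilla MEFs in FM. None of the 35 genes passed the edgeR test, as none of all 12154 did (0%), and by the unadjusted test at 0.05 9 of the 35 passed, against 14.4% of all genes. Among all genes DESeq2 called 26 higher and 50 lower and limma-voom none, and neither called any of the 35. The change was positive for 30 of the 35, against 51.0% of all genes, and the median was 0.35, against 0.01. The shBruce libraries were above the shRenilla libraries without overlap for 11 genes, against 16.4% of all genes, and below for none, against 17.0%. These 11 were Acat2, Mvk, Pmvk, Mvd, Fdps, Fdft1, Sqle, Nsdhl, Ebp and Dhcr7, all cholesterol enzymes, and Me1.

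Without replicate 3 of shBruce FM, 21 of the 35 changes were positive, the median was 0.11 and 1 gene passed the unadjusted test. Replicates 1 and 2 alone were above all 3 shRenilla libraries for 11 genes, against 26.1% of all genes, and below them for 6, against 26.2%. The 11 were the same genes as before, which had to be among them because all 3 shBruce libraries were already above. Fdps, the farnesyl diphosphate synthase, was at 726, 762 and 696 in shRenilla FM and at 877, 1096 and 1752 in shBruce FM. Its groups did not overlap, and its change of 0.77 (SE 0.29, adjusted p = 0.303) was 0.44 (SE 0.27, adjusted p = 0.493) without that library.

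**Figure D4:**
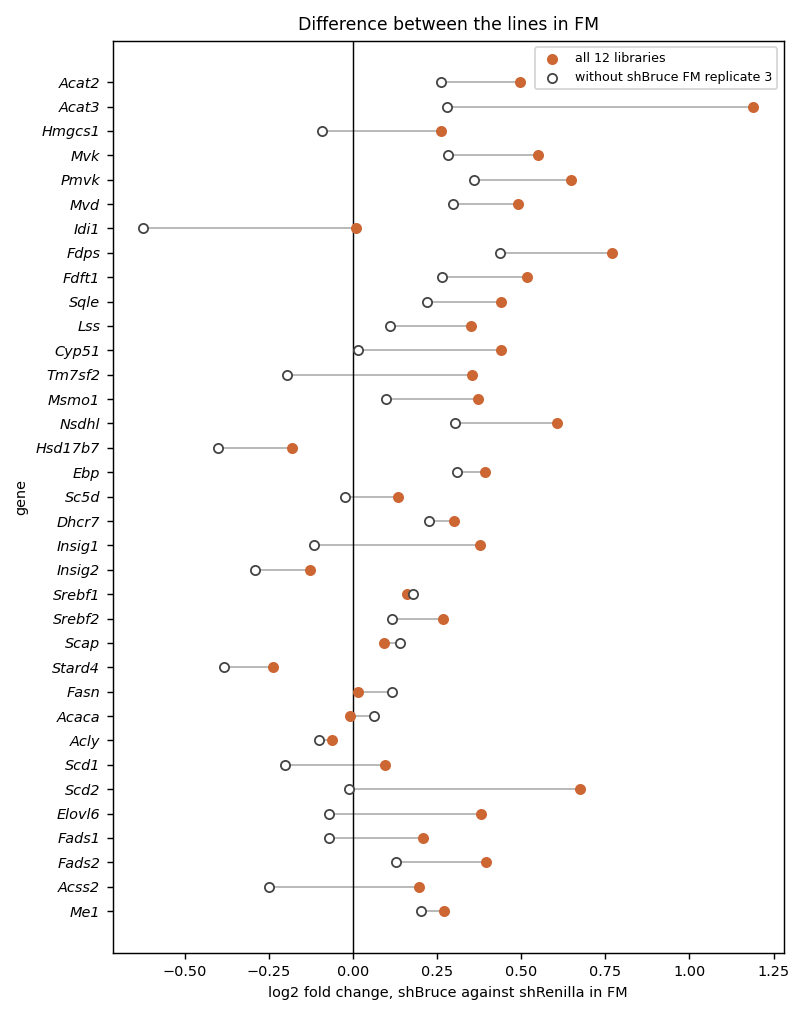
Log2 fold change of each of the 35 genes between shBruce and shRenilla MEFs in FM, from all 12 libraries (filled) and without replicate 3 of shBruce FM (open). With all libraries 30 of 35 points lie above 0 and without that replicate 21 do, and the cholesterol enzymes from Mvk to Nsdhl and the desaturase Scd2 are among those that shift to the left.

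In Starv, 4 of the 35 genes were lower in shBruce than in shRenilla MEFs (11.4%, against 11.2% of all genes) and 1 was higher (2.86%, against 12.8%), with a median of -0.16 against -0.0012. The 5 calls together were 14.3%, against 23.9% of all genes. The unadjusted test at 0.05 passed for 12 of the 35, against 41.2%, and the change was positive for 12, against 49.9%. The shBruce libraries were below without overlap for 11 of the 35, against 18.5% of all genes, and above for 2, against 16.4%. The 4 lower genes were Fads2 (-0.56), Hsd17b7 (-0.60), Acly (-0.33) and Stard4 (-0.70), with adjusted p from 0.0396 to 0.0405. Acat3 was higher by 3.20 (SE 0.59, adjusted p = 0.0225). Srebf2 was at -0.45 (SE 0.16, adjusted p = 0.0592), with every shBruce library below every shRenilla library.

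Stard4, a cytosolic carrier of cholesterol, was at 829, 545 and 773 in shRenilla FM, 994, 936 and 662 in shRenilla Starv, 523, 575 and 723 in shBruce FM, and 639.9, 384 and 576 in shBruce Starv. The groups overlapped in FM and were apart in Starv. Starvation changed it by 0.27 in shRenilla (adjusted p = 0.433) and by -0.19 in shBruce (adjusted p = 0.568), neither past the test.

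These calls between the starved lines depended on single libraries. None of the 35 passed without replicate 1 or without replicate 2 of shRenilla Starv, without replicate 2 of shBruce Starv, or with only the starved libraries in the fit. In these fits all genes gave no call either, except without replicate 2 of shBruce Starv, where 5 were higher and 10 lower. Acat3 alone passed (2.86% of the 35) without replicate 1 of shBruce Starv, where 4.68% of all genes did. It also passed alone without replicate 1 of shRenilla FM, against 16.0% of all genes. The same held after dependence on the length and GC content of transcripts was taken out of each library, against 5.59%. With that dependence taken out, Stard4 was at -0.29 and Hsd17b7 at -0.21. Without replicate 3 of shBruce Starv, 5 were lower (14.3%, against 24.5% of all genes) and 6 higher (17.1%, against 22.2%), the latter Acat2, Acat3, Mvk, Pmvk, Fdps and Ebp and the former Insig2, Srebf2, Stard4, Acly and Fads2.

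To ask whether starvation acted differently in the lines, the interaction of line and medium was tested. None of the 35 passed, as none of all genes did (0%), with the smallest adjusted p at 0.806 by edgeR. By the unadjusted test 7 of the 35 passed, against 3.90% of all genes, and DESeq2 and limma-voom called none after adjustment. Of the genes called in starved shBruce MEFs, Fads2 had an interaction of -0.95 (95% confidence interval -1.49 to -0.41, adjusted p = 0.806) and Srebf2 one of -0.72 (-1.22 to -0.22). These were -0.69 and -0.57 (adjusted p = 0.872 for both) when replicate 3 of shBruce FM was left out. The interaction was positive for 4 of the 35, against 49.0% of all genes. Without replicate 3 of shBruce FM, 5 passed the unadjusted test and the interaction was positive for 12. Its median was -0.38, against -0.01 for all genes, and -0.14 without replicate 3 of shBruce FM. A larger response in shBruce than in shRenilla is therefore not shown for any of these genes, and equal responses are not shown either.

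Other genes of the same control circuits were taken from lists. Of 14 genes of SREBP processing and turnover, 1 rose (7.14%) and 1 fell (7.14%) in shRenilla, against 9.69% and 7.27% of all genes. In shBruce, 1 rose (7.14%) and 2 fell (14.3%), against 12.4% and 10.6%. Lpin1, whose product lipin-1 restrains SREBP in the nucleus, was at 100.4, 89.6 and 94.99 in shRenilla FM and 427, 374 and 352 in shRenilla Starv. It was at 94.5, 81.7 and 152 in shBruce FM and 482, 314 and 385 in shBruce Starv. Starved libraries were far above fed ones in both lines (log2 2.01 and 1.84, adjusted p = 6.01e-05 and 1.07e-04). Rnf145, a sterol-regulated ubiquitin ligase that acts on SCAP, fell in both (-0.49 and -0.83, adjusted p = 0.0224 and 7.66e-04).

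Of 7 tested genes of the list of liver X receptors, the factors that answer to excess sterol, and their targets, 2 rose (28.6%) and 1 fell (14.3%) in shRenilla, against 9.69% and 7.27% of all genes. In shBruce, 3 rose (42.9%) and 1 fell (14.3%), against 12.4% and 10.6%. Abca1, the cholesterol exporter, rose by 1.23 and 1.31 on the log2 scale (adjusted p = 0.0399 and 0.0291), and Mylip, whose product marks lipoprotein receptors for degradation, rose by 1.02 and 1.11 (adjusted p = 0.00346 and 0.00193). Arl4c, which is also a target of these receptors, went the other way (-1.69 and -1.88). Of 14 tested genes of sterol transport and esterification, 3 rose (21.4%) and 1 fell (7.14%) in shRenilla, against 9.69% and 7.27% of all genes. In shBruce, 3 rose (21.4%) and 3 fell (21.4%), against 12.4% and 10.6%. Vldlr, a lipoprotein receptor, rose by 1.77 and 1.48 (adjusted p = 0.00322 and 0.00705), and Gramd1c, of a family of sterol carriers, rose by 1.19 and 1.34 (adjusted p = 0.0102 and 0.00951) from a low level. Osbpl5, of the oxysterol-binding protein family, fell in both lines (-0.55 and -0.75, adjusted p = 0.00501 and 6.09e-04). Cav1, the caveolin of the plasma membrane, fell in shBruce (-0.94, adjusted p = 0.0387) and was at -0.40 in shRenilla (adjusted p = 0.387).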

How the data were processed

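RNA-Seq libraries of 12 samples, 3 for each of 4 groups, were analysed from the raw read counts that the authors deposited. They enriched poly(A) RNA, filtered out rRNA reads, used STAR 2.4.0d to map to mm10 and HTSeq 0.5.4p3 to count reads per gene, versions that the submitters' processing notes also give. The annotation, strand setting and overlap mode of the counting are not given in the sources used here. Of the symbols, 27 had been turned into dates (0.296% of counts), none of them a gene described here. Positions, exons and transcript lengths came from GENCODE M21 on GRCm38. Another gene of the table shares exon positions with 9 of the 35 genes.

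The fit used edgeR 4.0.16 (R 4.3.3) after filterByExpr and TMM scaling, with a mean for each group over all 12 libraries and the two-sided quasi-likelihood test, adjusted by Benjamini-Hochberg over 12154 genes. Normalized counts are counts scaled by effective library size to the geometric mean size over the 12 libraries. Total counts of 7717265 to 18510540 set the counting precision, but replicates differed by more than counting error (chi-square per degree of freedom of 2.24 to 98.4), so errors are SEs of the fit. The labels do not say whether replicates were separate cultures, so p-values measure the spread between these samples, which may be technical. The steps were tested on simulated data.

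The 35 genes, the other lists and the tests were chosen with earlier results of these data known. Values in every library were given for the 5 SREBP factors and regulators, for Stard4, for up to 8 genes per direction that passed in a starvation comparison, with the largest mean absolute log2 fold change over both lines, and for up to 6 more that passed between the lines. From each other list, up to 2 genes per direction were named by the same measure, except 1 that is not reported here. Acat2, Fdps and Scd2 were given in this way after their values were seen. Marker lists covered fibroblasts, adipocytes, hepatocytes, epithelium, leukocytes and endothelium. The 23 alternatives were DESeq2's size factors, upper-quartile scaling, the DESeq2 1.42.0 Wald test, limma-voom (limma 3.58.1), no filter, at least 10 counts in every library, a fit of the groups compared alone, a replicate block, leaving out each of the 12 libraries, removing trends of counts with length and GC content (spline with 4 degrees of freedom), the same with the block, and, added after the data were seen, leaving out both shBruce FM replicate 3 and shBruce Starv replicate 1.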

Additional observations from a re-analysis of the deposited data

How the results depend on the processing

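Of the 35 genes, 1 was called in starved shRenilla (2.86%, against 17.0% of all genes) and 14 in starved shBruce (40.0%, against 23.0%). Between the starved lines 5 were called (14.3%, against 23.9%), and none between the lines in FM or for the interaction. The count was 0 between the lines in FM in all 23 alternatives, where 0% to 5.11% of all genes were called. It was 0 for the interaction in the 22 in which it could be fitted, as for all genes. In shRenilla the count was 2 (5.71%) with the DESeq2 Wald test and with length and GC trends removed, against 21.1% and 25.3% of all genes. It was 10 with only the groups compared (28.6%, against 41.9%). Without both shBruce FM replicate 3 and shBruce Starv replicate 1 it was 6 (17.1%, against 29.6%). It was 0 to 4 when each library was left out (0% to 11.4%, against 9.34% to 26.2%). In shBruce it was 5 with only the groups compared (14.3%, against 8.11% of all genes) and 19 with trends removed (54.3%, against 33.0%). It was 12 without both libraries (34.3%, against 26.2%). Leaving out each library gave 10 to 15 (28.6% to 42.9%, against 15.1% to 32.7%). Between the starved lines it was 9 with the Wald test (25.7%, against 31.1% of all genes) and 0 with only the groups compared (against 0%). It was 1 with trends removed (2.86%, against 5.59%) and 3 without both libraries (8.57%, against 6.92%). It was 0 to 11 when each library was left out (0% to 31.4%, against 0% to 46.7%). No change of a called gene reversed its direction in any alternative. With upper-quartile scaling, all genes split into 1991 higher and 933 lower in starved shBruce (1506 and 1284 as reported) and 1588 and 641 in shRenilla (1178 and 883), and the 35 genes into 1 and 12 in shBruce and 0 and 1 in shRenilla. The cause of these shifts was not tested. The depth of shBruce Starv replicate 1 limits low genes such as Idi1, with raw counts of 10 to 42.

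With the replicate number as a block, the counts were 1, 13, 0, 2 and 0 for shRenilla, shBruce, the lines in FM, the lines in Starv and the interaction, and with the block and trends removed 1, 18, 0, 0 and 0. Of all genes, 14.6%, 20.2%, 0%, 15.9% and 0% were called with the block. With the block and trends removed, these shares were 22.4%, 30.5%, 0.0165%, 0.00823% and 0%. Deviations of samples with the same number had correlations from -0.46 to 0.35, and those with different numbers from -0.38 to 0.51. Not every sample correlated best with its own number, so these values show no pairing by number. They cannot show whether samples with the same number were handled together.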

Other observations

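The list of mitochondrial fatty acid oxidation, the path that burns what the synthesis genes make, held 17 tested genes. 3 rose and none fell in shRenilla (17.6% against 9.69% of all genes higher), and 2 rose and none fell in shBruce (11.8% against 12.4%), with medians of 0.13 and 0.17. Cpt1a, which admits fatty acids to mitochondria, was at 796, 764 and 818 in shRenilla FM and at 2139, 2032 and 1767 in shRenilla Starv. In shBruce it was at 619, 695 and 1007 in FM and at 1570.4, 1356 and 2079 in Starv. The starved libraries lay above the fed ones in both lines, with log2 fold changes of 1.32 and 1.11 (adjusted p = 4.48e-04 and 0.00121 by edgeR). Echs1, an enoyl-CoA hydratase, rose by 0.61 in shRenilla (adjusted p = 0.0331) and was at 0.51 in shBruce (adjusted p = 0.0565).

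Of 18 tested genes of fatty acid activation and glycerolipid synthesis, 1 rose (5.56%, against 9.69% of all genes) and 2 fell (11.1%, against 7.27%) in shRenilla. In shBruce, 2 rose (11.1%, against 12.4%) and 1 fell (5.56%, against 10.6%), with medians of -0.14 in both lines. Dgat2, the last enzyme of triglyceride synthesis, was at 113, 124 and 111 in shRenilla FM and at 168, 178 and 171 in shRenilla Starv. In shBruce it was at 143, 133 and 102 in FM and at 214, 206 and 234 in Starv. Its groups did not overlap in either line, and it rose by 0.58 and 0.79 (adjusted p = 0.0178 and 0.00237). Slc27a1, a fatty acid transporter, rose in shBruce (0.57, adjusted p = 0.0259). Slc25a1, the mitochondrial citrate exporter that feeds Acly, fell in shBruce (-0.60, adjusted p = 0.0494), and Elovl1 fell in shRenilla (-0.56, adjusted p = 0.0472). Between the starved lines, 4 genes of the oxidation list were higher (23.5%, against 12.8% of all genes) and none lower (against 11.2%) in shBruce. Of SREBP processing and turnover, 2 were higher (14.3%) and 5 lower (35.7%). Of sterol transport and esterification, 3 were lower (21.4%) and none higher. Fatty acid activation and glycerolipid synthesis had 3 higher (16.7%) and 2 lower (11.1%), and the liver X receptor list none. With only the starved libraries in the fit, 0% of all genes were called.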
